A study of Mus musculus with 4 samples.

Results

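The cytosolic ribosomal protein genes were 78 of the 13314 genes in the count table, chosen by symbol alone as the Rpl and Rps genes with a plain number or an a, x, y or l ending, the stalk genes Rplp0 to Rplp2, and Rpsa. They comprised 31 genes of the small subunit, 44 of the large subunit and 3 of the stalk. The data were single-cell RNA-seq unique molecular identifier (UMI) counts from CD4 T cells of the mesenteric lymph nodes, the nodes that drain the intestine. The 4 libraries came from male mice raised without microbes. Foxp3GFP mice, whose regulatory T (Treg) cells carry a green fluorescent protein (GFP) reporter of Foxp3, gave 1 germ-free library and 1 library taken 9 days after colonization with fecal microbiota of specific-pathogen-free (SPF) mice. Foxp3CNS1- mice, which lack the Foxp3 enhancer CNS1 needed for Treg induction outside the thymus, gave the other germ-free and colonized libraries. Each library pooled nodes of 3 mice and was loaded as an equal mix of GFP+ and GFP- cells, so that Treg cells were enriched above their natural share by design. With 1 library per group, no difference between groups was tested. The intervals below are exact 95% intervals that cover counting error, not the variation between mice.

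Every ribosome joins a small subunit, which decodes the mRNA, to a large subunit, which forms the peptide bond, and the acidic stalk of the large subunit recruits elongation factors. Vertebrate ribosomal protein mRNAs typically start at a C within a run of C and T, the 5′ terminal oligopyrimidine (TOP) tract, through which LARP1 and the kinase mTORC1 set their translation. Quiescent lymphocytes are known to store such mRNAs, and to translate and supplement them on activation.

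The start of the transcript is where that shared feature lies. RefSeq promoter windows were found for 58 of the 78 members. The search counted from any C within 10 bases of the annotated start, on the gene's own strand, over following letters of C or T only. A run of at least 6 letters counted in this way was present in 33 of these 58 members (56.9%). The same search matched 23.84% of the 10050 genes of the count table with a window and 21.87% of all 27025 genes with one. The letters CTTTC near the start were present in 15 of 58 members (25.86%) against 3.622% of the count-table genes. The 30 bases around the start of 8 genes are shown in the gene's direction, 12 before the annotated start and 18 from it on, with the run in capitals (GRCm38.p6, RefSeq). Rps27 and Rps27l are shown because they went in opposite directions, Rpl35 and Rpl7a because they differed between libraries, Rps6 as the S6 kinase substrate, Rplp2 for the stalk, Rps28 as a member without a run, and Eef1a1 as a translation gene outside the list that followed it closely.
Rps27: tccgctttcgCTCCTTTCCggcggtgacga
Rps27l: ctCCTCCCCgccgcctctatcccggaagtt
Rpl35: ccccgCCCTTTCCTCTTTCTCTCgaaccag
Rpl7a: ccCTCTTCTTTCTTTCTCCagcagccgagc
Rps6: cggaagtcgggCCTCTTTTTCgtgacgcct
Rplp2: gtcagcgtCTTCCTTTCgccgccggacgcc
Rps28: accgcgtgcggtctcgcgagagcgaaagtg
Eef1a1: ggctccgCCCTCTTCCCgagggtgggggag
These stretches lie at chr3:90213631-90213660 (minus strand) for Rps27, chr9:66946074-66946103 (plus) for Rps27l, chr2:39005114-39005143 (minus) for Rpl35, chr2:26910795-26910824 (plus) for Rpl7a, chr4:86857350-86857379 (minus) for Rps6, chr7:141447639-141447668 (plus) for Rplp2, chr17:33824545-33824574 (minus) for Rps28 and chr9:78481707-78481736 (minus) for Eef1a1. The run of Rps27 spans the annotated start, whereas the counted run of Rps27l begins at the search limit, 10 bases before it, and ends ahead of it. In Rps27l and Rpl7a, C or T letters also lie directly before the capitals, beyond that limit. A match describes the letters in this window and does not show which base transcripts start at.

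The 4 libraries held 3979, 4030, 3533 and 5406 analysed cells in the order Foxp3GFP germ-free, Foxp3GFP colonized, Foxp3CNS1- germ-free and Foxp3CNS1- colonized, and all values for 4 libraries below keep this order. Their totals ran from 9360112 to 17929193 UMIs, with medians of 2286 to 2832 UMIs per cell. Between 18 and 34 cell barcodes were shared by any pair of libraries. The authors' clusters 0 to 9 were used as deposited, with names given from marker lists. Clusters 1 and 2 were naive-like (Lef1, Dapl1 and Igfbp4 among their leading genes), cluster 0 Treg-like (Il2ra, Nrp1, Lrrc32), cluster 5 effector- or memory-like (S100a4, S100a6, Ccr2) and cluster 9, with 84 cells, follicular helper-like (Pdcd1, Sostdc1, Ascl2, Il4). Cluster 8 was called proliferating-like, since it was led by cell cycle genes such as Bub1 and E2f8 and its proliferation list summed to 4649 UMIs per 1000000 (CPM) against 361 to 1791 CPM elsewhere. Clusters 3, 4, 6 and 7 had at most 1 marker of any list among their 10 leading genes and were left unnamed. Cluster 6 nevertheless had a Treg list sum of 3558 CPM and Foxp3 of 133.9 CPM, near those of Treg-like cluster 0 (3402 and 137.5 CPM). Its lack of a name therefore does not set it apart from Treg cells. Cluster 3, led by Epcam, had the highest sum of the Treg list (6225 CPM) and the highest Foxp3 (241.9 CPM), and also held plasma cell transcripts (2418 CPM summed, against 38.3 to 589 CPM in the other clusters). The lists of B cell, plasma cell and myeloid genes, which should be low after a CD4 sort, summed to 817 to 971, 62.1 to 828 and 112 to 172 CPM in the libraries, and 1 of the 8 B cell and 2 of the 7 plasma cell genes were below 1 CPM in each library.

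Ribosomal protein mRNAs made up 18981475 of the 51473658 UMIs of the analysed cells, 36.88%. The share differed more between clusters than between libraries. It was highest in naive-like cluster 1, at 45.87% to 46.76% in the 4 libraries (mean 46.28%), followed by naive-like cluster 2 at 41.47% to 41.71% (mean 41.63%). Those ranges did not overlap with each other or with any other cluster. Clusters 6 (mean 38.59%, 36.81% to 40.34%), 4 (37.82%, 36.96% to 39.37%) and Treg-like cluster 0 (35.33%, 33.65% to 36.90%) came next, and the range of cluster 6 overlapped with those of clusters 4 and 0, while cluster 4's lowest library lay just above cluster 0's highest. Clusters 7 (32.62%, 30.40% to 34.67%), 8 (31.26%, 30.04% to 32.11%) and 5 (31.24%, 30.39% to 31.74%) overlapped with each other, and cluster 7 with cluster 0. Epcam-led cluster 3 had 27.67% (25.42% to 29.35%) and follicular helper-like cluster 9 had 24.59% (21.37% to 27.97%), and these last ranges overlapped too. The highest cluster mean was 1.88-fold the lowest, and the fold was 2.16, 1.81, 1.98 and 1.66 within the 4 libraries. Clusters were made from these same cells, so these differences are a description.

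**Figure D1:**
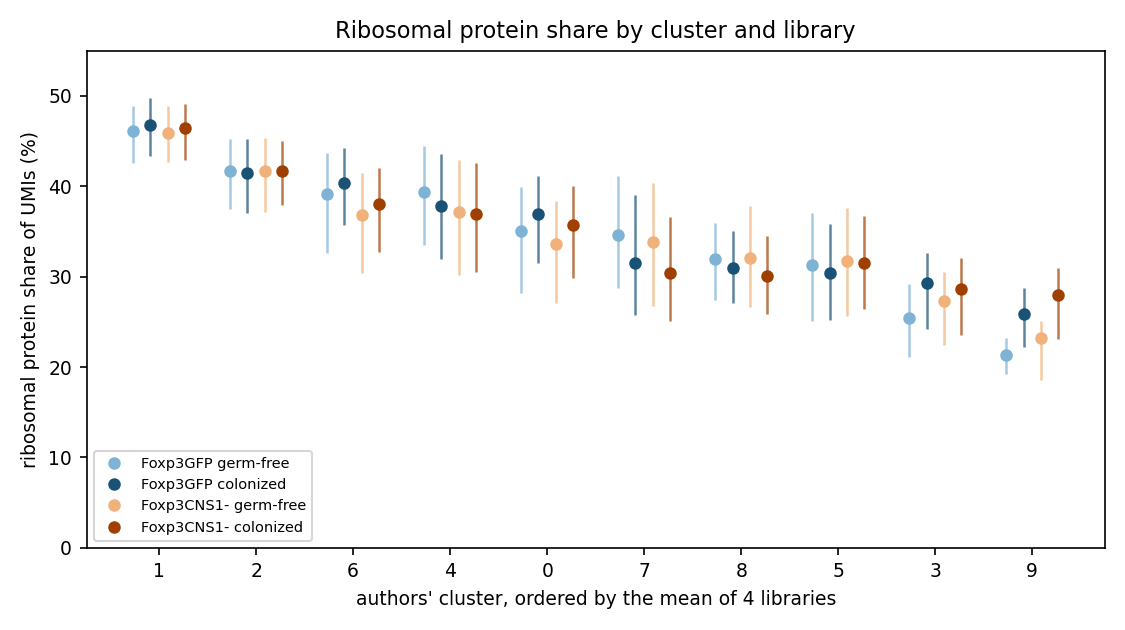
Share of all UMIs that fell in the 78 ribosomal protein genes (y axis, percent) for each of the authors' clusters (x axis, ordered by the mean of the 4 libraries). Each point is 1 library, and the 4 points of cluster 1 (45.87% to 46.76%) lie above those of every other cluster, while cluster 9 (21.37% to 27.97%) is lowest by its mean.

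Single cells varied widely around these values. Within a cluster and library the per-cell share had an SD of 4.54 to 8.48 percentage points, against 0.533 to 1.12 points expected from counting at the median depth. Cluster membership took up 40.12% of the variance of the per-cell share over all cells, library 1.31% and the logarithm of UMIs per cell 5.03%. A share above 50% was found in 686 cells (4.05%), of which 74.3% were in cluster 1, and a share under 20% in 571 cells. Mitochondrially encoded transcripts, a sign of cell quality, made up 1.86% to 3.74% of UMIs over the clusters and libraries and were highest in cluster 9, where the ribosomal share was lowest. Their part in that low share was not tested. Cluster 8 cells were deeper than the rest, with medians of 5250 to 7392 UMIs in the 4 libraries against 1786 to 3036 in the other clusters. With every cell reduced to 1500 UMIs the cluster means were 45.8% in cluster 1, 31.3% in cluster 8 and 24.0% in cluster 9.

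The parts of the ribosome kept a near-constant proportion. Small subunit genes gave 42.7% to 46.4% of ribosomal protein UMIs over all clusters and libraries, large subunit genes 48.8% to 52.1%, and the stalk genes 4.28% to 5.33%. Rank order was kept as well: across members, Spearman's correlation of mean CPM between 2 clusters was 0.913 at the lowest, for clusters 3 and 8, with a median of 0.980 over 45 pairs. Over the 40 sums of a cluster in a library, the median correlation of a member with the rest of the group was 0.945, and 56 of 77 members were above 0.9. These 40 sums share libraries and add up to a fixed total, so the correlation is a description.

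Levels of single genes spanned a wide range, with no correction for length since the 3′ assay counts 1 end of each molecule. Rps27, a zinc-finger protein of the small subunit, was highest at 14702, 14613, 15100 and 13346 CPM. Rps29, another small zinc-finger protein, followed at 11758, 11152, 11481 and 9743 CPM. For both genes the colonized Foxp3CNS1- library was the lowest of the 4. Rps19, whose human counterpart is mutated in Diamond-Blackfan anemia, had a mean of 9297 CPM, and Rpl13, Rpl13a, Rps18 and Rps14 were also among the top 8, which held 21.09% of ribosomal protein UMIs. Among members with at least 50 UMIs in every library the lowest were Rps21, Rpl29, Rpl28 and Rps12 (1827 to 2110 CPM), then Rpl5, a partner of 5S rRNA (1512 CPM), Rpl22, which is needed for αβ T cell development (1338 CPM), Rpl7a (1276 CPM) and Rps27l (202 CPM). Rpl11, which joins Rpl5 on the 5S particle, stood at 4097 CPM, and the ubiquitin fusion gene Rps27a at 4857 CPM. Rpl39l, a copy of Rpl39 known mainly from testis, had 60 UMIs in all, at 0.744, 1.93, 1.28 and 0.781 CPM, and was left out of the cluster descriptions.

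Nearly every member followed the summed share. Of 77 members with 50 or more UMIs in every library, 68 were highest in cluster 1, and 76 were higher in cluster 1 than in cluster 3 in each of the 4 libraries. The lowest level was in cluster 9 for 58 members, in cluster 3 for 15, in cluster 8 for 3 and in cluster 1 for 1, Rps27l. These counts were made for the members alone, without a share over all genes. The median fold between the highest and lowest cluster was 1.90. A gene was counted as different in a cluster when its mean CPM there was past 1.2-fold of that in the other clusters, in the same direction in 4 of 4 libraries, over 8342 genes with enough UMIs. By that rule 62 of 77 members were higher in cluster 1, where 4.28% of all genes were, and 14 were higher in cluster 2 (5.06% of all genes). Rps27l was the 1 member lower in each of these clusters, where 47.4% and 28.7% of all genes were lower. In cluster 9, 75 members were lower (10.7% of all genes), in cluster 3 69 were lower (9.21%) and in cluster 5 40 were lower (8.26%), with 0 higher in these 3 clusters (13.5%, 30.7% and 16.2% of all genes). Clusters 0, 4, 6 and 7 had 2, 1, 0 and 3 members lower, where 6.69%, 6.47%, 9.09% and 6.49% of all genes were, and none higher (12%, 3.85%, 8.42% and 7.9% of all genes).

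**Figure D2:**
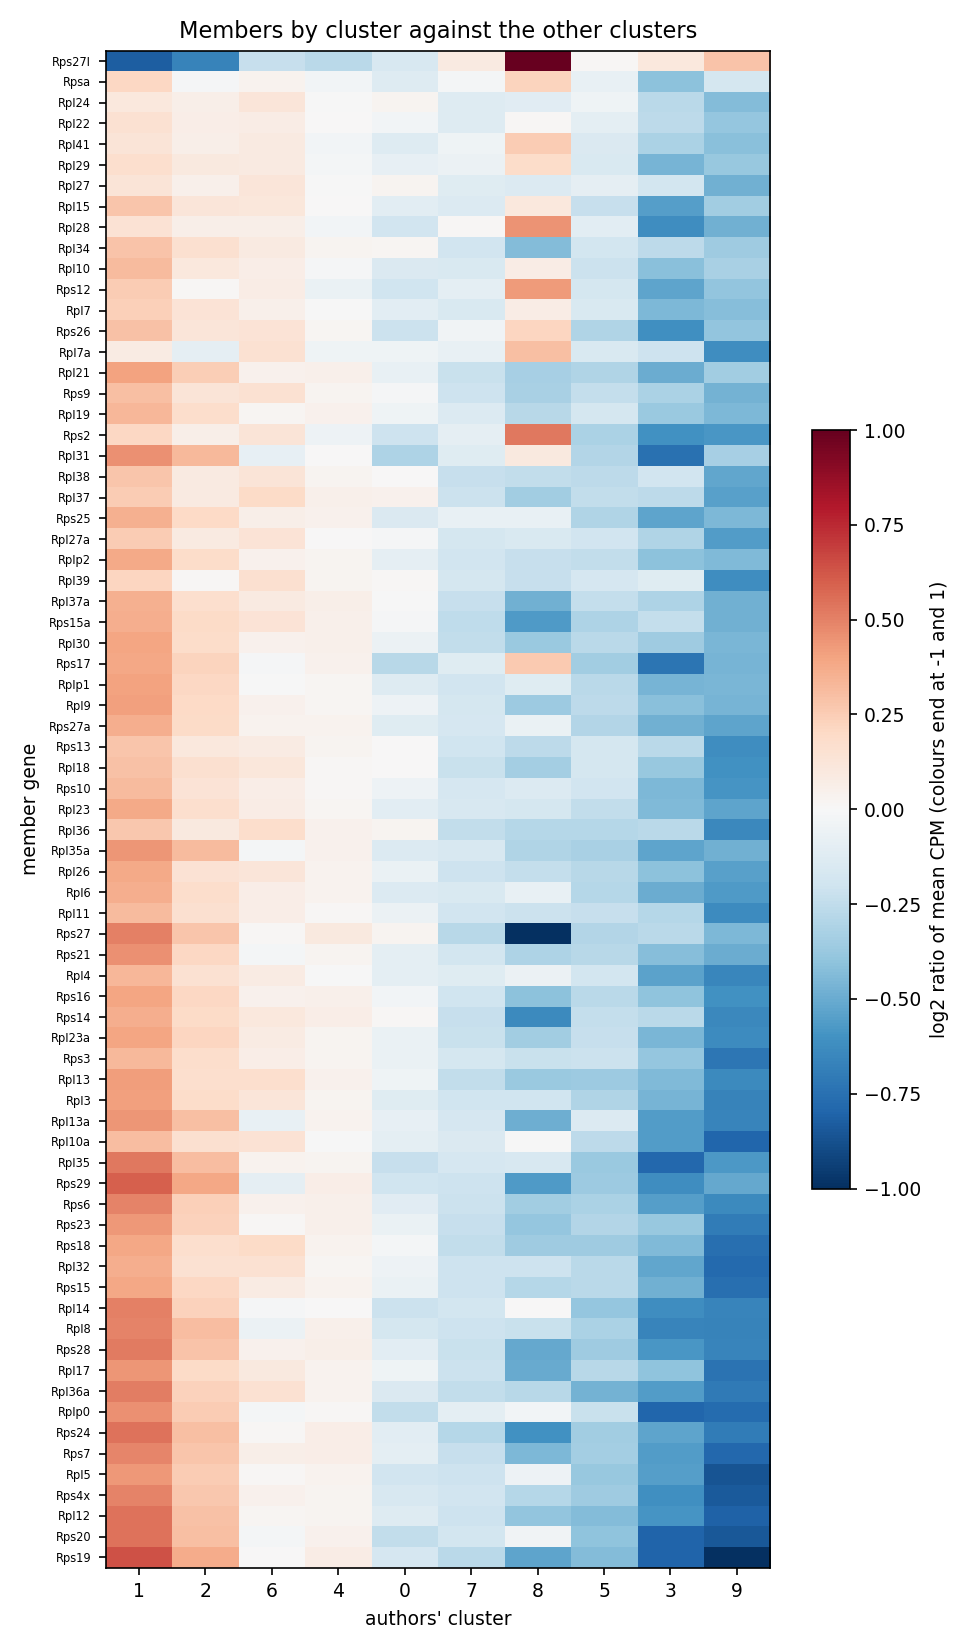
Log2 ratio of mean CPM for 73 of the 77 members, each member's mean in a cluster to its mean in the other clusters (colour, ending at -1 and 1), with members in rows and the authors' clusters in columns. Over all 77, cluster 1 is higher for 62 members past 1.2-fold and cluster 9 lower for 75. Rps27l is lower in cluster 1 and passes in neither direction in cluster 9, where it has 8 to 17 UMIs a library.

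Rps27l, Rps19, Rps27 and Rps20, of the small subunit, were among the members with the widest spread between clusters. Rps19 stood at 13155, 13112, 13088 and 13829 CPM in cluster 1 and at 3127, 4560, 4666 and 5994 CPM in cluster 9, with no overlap between the sets of libraries. Its 2.90-fold range of cluster means was the largest apart from Rps27l. Rps20 stood at 1847 CPM in cluster 9 and at 4508 CPM in cluster 1, with a log2 ratio of -0.85 for cluster 9 against the other clusters. Rps6, the S6 kinase substrate, stood at 8239 CPM in cluster 1, 5825 CPM in cluster 0, 4356 CPM in cluster 3 and 4014 CPM in cluster 9. Rpsa, first described as a laminin receptor, varied little, from 2601 CPM in cluster 3 to 3897 CPM in cluster 8.

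Large subunit genes included those that varied least. Rpl22 stood at 1431, 1461, 1523 and 1442 CPM in cluster 1 and at 946, 1097, 918 and 1126 CPM in cluster 9, a 1.43-fold range of cluster means that was the smallest of all 77. Rpl24, Rpl27 and Rpl29 were also among the 5 flattest members. Rpl5 was at the other end, with 1936 CPM in cluster 1 and 831 CPM in cluster 9. Of the stalk genes, Rplp0, the base to which the P1 and P2 dimers bind, ranged from 10127 CPM in cluster 1 to 4584 CPM in cluster 9 and 4659 CPM in cluster 3. The acidic proteins Rplp1 and Rplp2 ranged less, from 6160 and 6018 CPM in cluster 1 to 3575 and 3578 CPM in cluster 9.

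Members with and without a matched run near the annotated start had a similar spread between clusters. The 32 tested members with a run had a median log2 fold of 0.88 between their highest and lowest cluster, and the 25 without one had 0.86. Since a match does not show which base transcripts start at, this split is by annotation, and the tract of the transcripts themselves was not tested.

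Rps27l and Rps27 encode near-identical small subunit proteins, and Rps27l is known as a p53 target. Rps27l lies on chr9:66946086-66949516 (plus strand) and Rps27 on chr3:90212522-90213651 (minus strand), each with 4 exons in the GENCODE annotation of mm10. Rps27l was highest in the proliferating-like cluster 8, at 467, 525, 467 and 536 CPM. It was lowest in naive-like cluster 1, at 117, 123, 132 and 119 CPM. Rps27 showed the reverse, with 18298, 20153, 19119 and 19079 CPM in cluster 1 and 7325, 6647, 7306 and 6437 CPM in cluster 8. In neither gene did the libraries of the 2 clusters overlap. Rps27l therefore made up 0.61% to 0.69% of the pair's UMIs in cluster 1 and 6.0% to 7.68% in cluster 8. A UMI of Rps27l was seen in 84.4% of cluster 8 cells (median 6716 UMIs per cell) and in 30.1% to 44.0% of cells of the other clusters (medians 2074 to 2855), so the share of cells also reflects depth, whereas the CPM does not scale with it. Rps27rt, an Rps27 retrocopy in the table, stood at 69.7 CPM in cluster 8 and 230 CPM in cluster 1. The sources used here do not say how reads were divided between these copies.

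**Figure D3:**
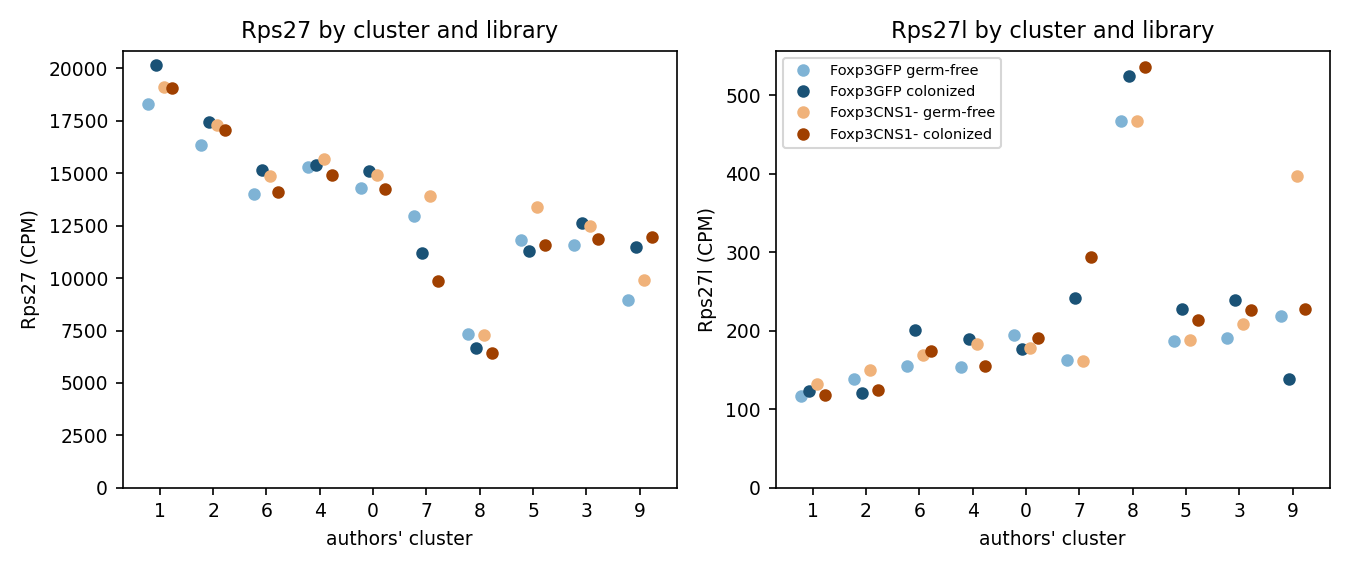
CPM of Rps27 and of Rps27l (y axes, starting at 0) in each of the authors' clusters (x axis), 1 point per library. Cluster 8 has the lowest Rps27 (6437 to 7325 CPM) and the highest Rps27l (467 to 536 CPM).

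In cluster 8 the ribosome's genes divided. By the 1.2-fold rule, 5 members were higher (30.4% of all genes were) and 35 lower (26.8% of all genes). The 5 were Rps27l (log2 ratio 1.55), Rps2, a protein of the mRNA entry site (0.53), Rpl28 (0.45), Rps12 (0.43) and Rpl7a (0.30). Rps2 stood at 5179, 5221, 5383 and 5086 CPM in cluster 8 against 4257, 4169, 4343 and 4230 CPM in cluster 1. Rps27 (-1.14), Rps14 (-0.63) and Rps24 (-0.61) were among those farthest down. The median over 77 members was -0.23, with 0.03 over all genes. Ribosome biogenesis genes, which make and process rRNA and assemble subunits, went the other way: 39 of 44 were higher and 1 lower, with a median of 1.05. Nucleolin (Ncl) stood at 1110 CPM in cluster 8 against 351 to 510 CPM in the other clusters, and nucleophosmin (Npm1) at 2060 against 705 to 1207 CPM. Of the mitochondrial ribosomal protein genes, 66 of 78 were higher and 0 lower (median 0.68). Both lists were fixed with earlier results of these data known.

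In naive-like cluster 1, where 4.28% of all genes were higher and 47.4% lower by the 1.2-fold rule, members had a median log2 ratio of 0.38 against -0.30 over all genes. Of 44 biogenesis genes 0 were higher and 11 lower, a smaller share than among all genes. Of 78 mitochondrial ribosomal protein genes 0 were higher and 37 lower, and of 25 genes of the mTORC1 pathway with Myc 0 were higher and 12 lower, both near the share of all genes that were lower. Of 20 other translation genes with a known TOP tract, 5 were higher and 2 lower, with a median of 0.09. In cluster 9, where 10.7% of all genes were lower and 13.5% higher, 11 of these 20 were lower and 0 higher, and 9 of 44 biogenesis genes were lower and 2 higher. In cluster 3, where 9.21% of all genes were lower and 30.7% higher, 16 of 44 biogenesis genes were lower and 2 higher, and 9 of the 20 translation genes were lower and 0 higher.

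Outside the list, the genes whose log2 CPM followed the ribosomal share were ranked over the 40 cluster-by-library sums among 2306 genes at 50 CPM or more. First came Rps3a1 (Spearman 0.98), itself a small subunit protein that the symbol rule misses. Then came the chemokine receptor Ccr7 (0.95), the elongation factor Eef1a1 (0.91), Dph5, which helps modify elongation factor 2 (0.91), the ribosomal protein fusion gene Fau (0.88), Pik3ip1 (0.87), Eef1b2 (0.87), Eef2 (0.86) and Tsc22d3 (0.85). Ccr7 stood at 379 CPM in cluster 1, 90.4 CPM in cluster 3 and 32.6 CPM in cluster 9, and was also on the naive marker list. The most opposed were the signal peptidase subunit Spcs1 (-0.96), the lysosomal protease Ctsb (-0.96), Timp2 (-0.96), the costimulatory receptor Icos (-0.95), Zap70 (-0.95), Rab11a (-0.95), the signal peptidase subunit Sec11c (-0.94), Rap1a (-0.94), Tnfaip8 (-0.94) and the granule proteoglycan Srgn (-0.94). Srgn stood at 216 CPM in cluster 1 and 1476 CPM in cluster 3. A large share of 1 group lowers the CPM of every other gene: UMIs outside the group were 1.40 times as large a part of the total in cluster 9 as in cluster 1.

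Between libraries the share moved little. It was 38.48% (38.45% to 38.51%) in germ-free Foxp3GFP, 37.48% (37.45% to 37.50%) in colonized Foxp3GFP, 36.56% (36.53% to 36.59%) in germ-free Foxp3CNS1- and 35.63% (35.61% to 35.65%) in colonized Foxp3CNS1- cells. Colonized over germ-free, the log2 ratio was -0.04 in both genotypes, and Foxp3CNS1- over Foxp3GFP it was -0.07 in both housing states. The 2 colonization values turned to 0.02 and 0.01 when each cluster was given the same weight in every library, and the genotype values shrank to -0.02 in both housing states. Plasma cell genes summed to 828 and 517 CPM in the colonized libraries against 62.1 and 70.7 CPM in the germ-free ones of the same genotype. Without cells holding 10 or more immunoglobulin UMIs the colonization values were -0.02 and -0.03. The colonized libraries were also deeper per cell, and with cells reduced to 1500 UMIs both colonization values were -0.02.

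Gene by gene, 1 of 77 members passed 1.2-fold with an interval leaving out 1 on colonization in Foxp3GFP mice, in the upward direction (11.2% of 9990 genes did), and 0 in the downward direction (11.3%). In Foxp3CNS1- mice it was 1 upward (7.61% of 10204 genes) and 0 downward (12.2%). For genotype, 0 members passed in germ-free mice in either direction (8.21% of genes higher, 3.12% lower), and in colonized mice 0 were higher and 1 lower (4.82% and 4.06% of genes). Those shares at 1.2-fold are below the background in each case. By the interval alone, 48 members were lower and 15 higher on colonization in Foxp3GFP mice (16% and 17.9% of all genes), and 42 lower and 19 higher in Foxp3CNS1- mice (17.3% and 14.7%). For genotype, 69 were lower and 3 higher in germ-free mice (6.02% and 15.8% of all genes), and 72 lower and 1 higher in colonized mice (7.72% and 13.9%). The median log2 ratio of the members was -0.03 for colonization in either genotype, where all genes had -0.01 and -0.04, and -0.07 for genotype in either housing state, where all genes had 0.05 and 0.03. The colonization median in Foxp3CNS1- mice turned to 0.02 under TMM scaling, under DESeq2 size factors and with a fixed mix of clusters, and that in Foxp3GFP mice turned to 0.02 with a fixed mix of clusters. The genotype medians kept their sign under these 3 settings but not their size. In germ-free mice the median was -0.13 under TMM scaling and -0.02 with a fixed mix of clusters, where 53 in place of 72 members were lower. In colonized mice it was -0.10 and -0.03, with 60 in place of 73 members lower under the fixed mix. The comparisons share libraries, and their values are set side by side as such.

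**Figure D4:**
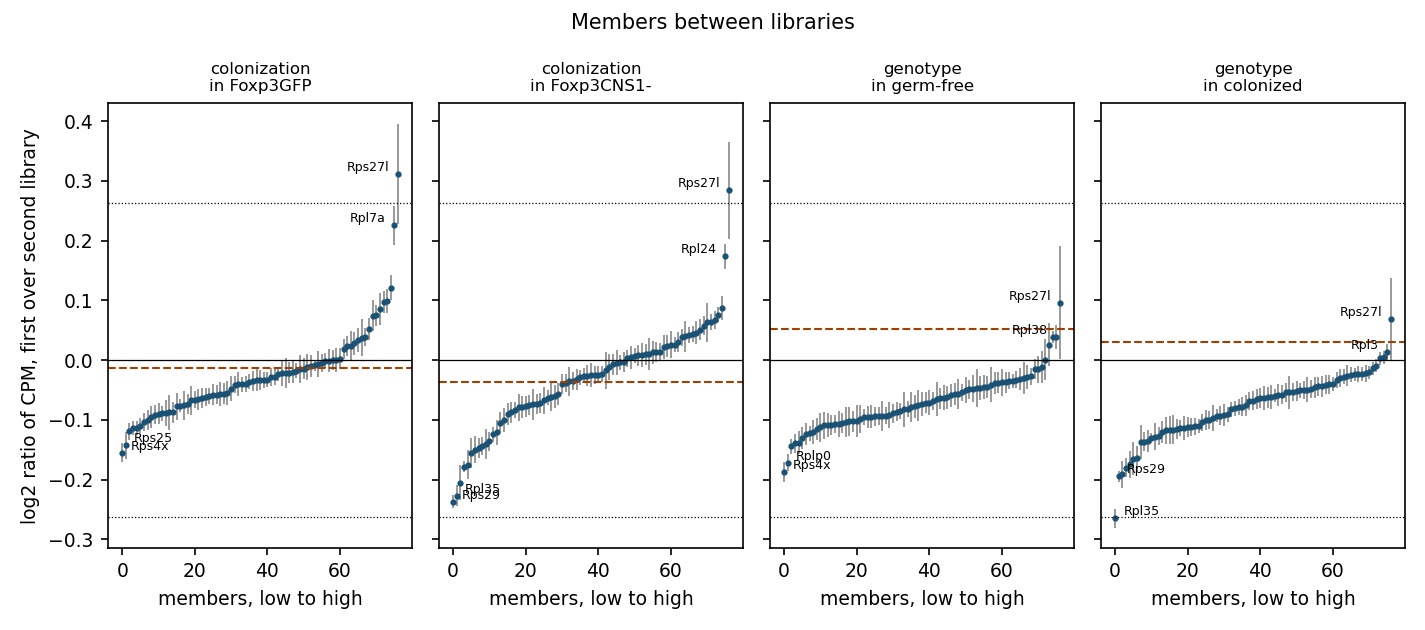
Log2 ratio of CPM between 2 libraries for 77 members, ordered from low to high in each of 4 panels, with vertical bars for the exact 95% counting interval and a dashed line at the median of all genes tested. Rps27l is at the top of both colonization panels (0.31 and 0.28), and Rpl35 at the bottom of the genotype panel for colonized mice (-0.27).

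The member past the threshold on colonization was Rps27l in both genotypes. Its level was 175 CPM germ-free and 218 CPM colonized in Foxp3GFP mice (log2 ratio 0.31, 0.23 to 0.40), and 187 CPM germ-free and 228 CPM colonized in Foxp3CNS1- mice (0.28, 0.20 to 0.37). The difference did not pass 1.2-fold with the mix of clusters held fixed (0.15 and 0.07) or with cells reduced to 1500 UMIs (0.17 and 0.14). Cluster by cluster, Rps27l was higher after colonization in 7 of 10 clusters in Foxp3GFP and 6 of 10 in Foxp3CNS1- cells.

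In at least 9 of 10 clusters, 8 of 77 members were higher and 0 lower after colonization in Foxp3GFP cells, and 7 were higher and 9 lower in Foxp3CNS1- cells. For genotype it was 4 higher and 5 lower in germ-free mice and 5 higher and 17 lower in colonized mice. The same count was not made over all genes, so whether these numbers are unusual is not known. The examples that follow were chosen after their values were seen. The clusters of a library share its preparation, so agreement between clusters is not replication. Rpl24, a protein at a bridge between the subunits, was 2994 and 3257 CPM in the Foxp3GFP pair, germ-free first, and 2797 and 3155 CPM in the Foxp3CNS1- pair (log2 ratios 0.12 and 0.17). It was higher after colonization in 9 of 10 clusters in Foxp3GFP and 10 of 10 in Foxp3CNS1- cells. Rpl27 was higher in 10 of 10 and 9 of 10 clusters (0.10 and 0.09 over all cells). Rpl7a was 1200 and 1404 CPM in the Foxp3GFP pair (0.23, higher in 10 of 10 clusters) but 1222 and 1277 CPM in the Foxp3CNS1- pair (0.06, higher in 7 of 10). Over all cells, members also far from the group on colonization in Foxp3GFP mice were Rpl38 (0.10, higher in 10 of 10 clusters), Rps12 (0.09, higher in 8 of 10), Rps4x (-0.16), Rps25 (-0.14), Rps24 (-0.12), Rps19 (-0.11), Rpl13 (-0.11) and Rps14 (-0.11). Of the last 6, Rps4x and Rps25 were lower in 8 of 10, Rps24, Rpl13 and Rps14 in 7 of 10 and Rps19 in 6 of 10.

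The colonized Foxp3CNS1- library was lowest for several members. Rpl35, a protein by the exit of the nascent peptide tunnel (chr2:39001580-39005624, minus strand), stood at 4823, 4821, 4695 and 4012 CPM in the 4 libraries, so that the first 3 lay close together and the last was apart. Its log2 ratio was -0.27 (-0.28 to -0.25) for genotype in colonized mice, lower in 10 of 10 clusters, and -0.23 for colonization in Foxp3CNS1- mice, also in 10 of 10 clusters. With the mix of clusters held fixed it was -0.19, under the 1.2-fold mark. Rps29 was lower on colonization in Foxp3CNS1- mice in 10 of 10 clusters (-0.24), and Rps27 (-0.18), Rpl5 (-0.21), Rpl30 (-0.17) and Rps21 (-0.16) in 9 of 10. In that comparison Rpl41, the shortest member, was on the other side (0.06). For genotype in colonized mice Rps29 (-0.19), Rps21 (-0.19), Rpl39 (-0.18), Rps26 (-0.17), and Rpl5 and Rpl12 (each -0.16) were also low. In germ-free mice the members farthest down included others: Rps4x, an X-linked gene (-0.19), Rplp0 (-0.17), and Rps19 and Rpl14 (each -0.14). Rps27 and Rpl38 were farthest up there (each 0.04), beside Rps27l (0.10). Across the 77 members, Spearman's correlation of the log2 ratio with coding length was -0.17 and 0.39 for colonization in Foxp3GFP and Foxp3CNS1- mice, and -0.56 and 0.25 for genotype in germ-free and colonized mice. Members are not independent replicates, and these values describe 1 library pair each.

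Within clusters, the share after colonization went in different directions, and often in the same one in both genotypes. It was higher in both genotypes in 5 of 10 clusters, lower in both in 4 and opposite in 1. In Treg-like cluster 0 it was 35.06% germ-free and 36.90% colonized in Foxp3GFP cells and 33.65% and 35.71% in Foxp3CNS1- cells, differences of 1.83 and 2.07 percentage points. In Epcam-led cluster 3 it was 25.42% and 29.35% in Foxp3GFP cells (3.93 points) and 27.26% and 28.67% in Foxp3CNS1- cells (1.41 points). In follicular helper-like cluster 9 it was 21.37% and 25.85% (4.48 points) and 23.17% and 27.97% (4.80 points), from 17 to 25 cells a library. Unnamed cluster 7 went the other way, with 34.67% and 31.56% (-3.11 points) and 33.86% and 30.40% (-3.46 points). Naive-like clusters 1 and 2 moved by 0.67 and -0.22 points in Foxp3GFP cells and by 0.53 and 0.06 points in Foxp3CNS1- cells. The median UMIs per cell also differed between the libraries within clusters.

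**Figure D5:**
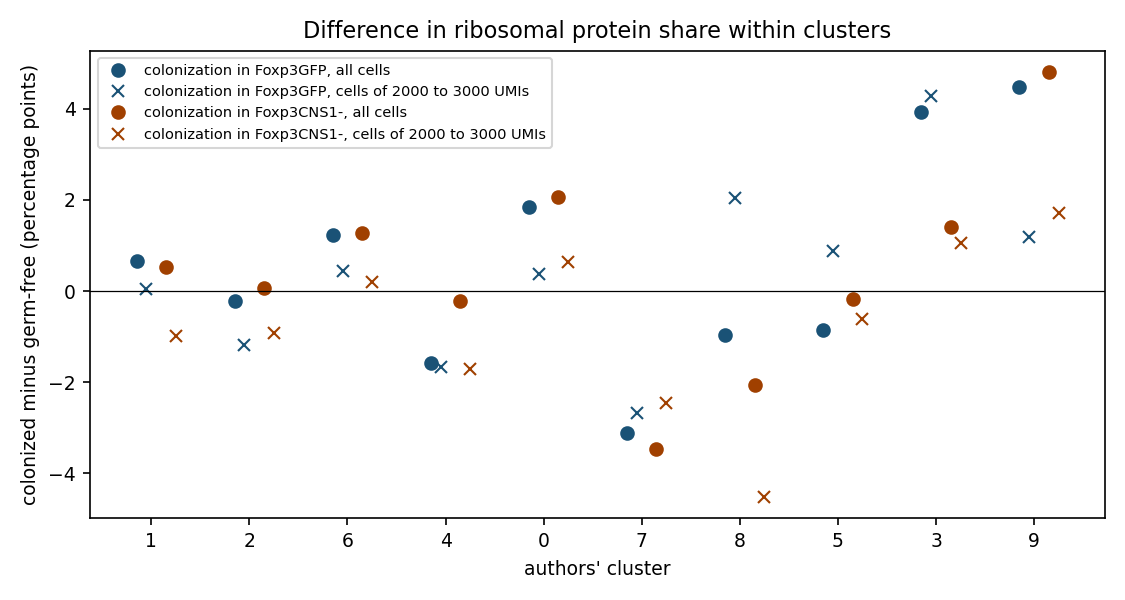
Ribosomal protein share in the colonized minus the germ-free library (y axis, percentage points) in each of the authors' clusters (x axis), for both genotypes, with circles for all cells and crosses for cells of 2000 to 3000 UMIs. With all cells, clusters 0, 1, 3, 6 and 9 lie above 0 in both genotypes. Clusters 4, 5, 7 and 8 lie below 0 in both, with cluster 7 lowest (-3.11 and -3.46 points).

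Among cells of 2000 to 3000 UMIs alone, cluster 3 kept 4.28 and 1.05 points and cluster 7 kept -2.68 and -2.45 points. Cluster 0 had 0.38 and 0.64 points there, and cluster 9 had 1.18 points from 10 and 15 cells and 1.72 points from 12 and 6 cells. With that depth range, 4 clusters were higher in both genotypes, 3 lower and 3 opposite. The counts by gene that follow are from all cells of a cluster, without matching of depth. In cluster 3, 56 of 77 members were higher after colonization in both genotypes and 0 lower in both. Of the other genes with 50 UMIs in each library, 20.7% were higher and 43.6% lower in both. The members' medians were 0.22 and 0.07, and those of the other genes -0.10 and -0.04. In cluster 7, 9 members were higher and 59 lower, against 54.5% and 15.6% of the other genes. Members had medians of -0.12 and -0.14 there, where other genes had 0.17 and 0.13. In cluster 0, 60 were higher and 3 lower in both, where 23.3% and 41.7% of the other genes were. In cluster 6 it was 43 and 3 (27.2% and 32.9% of the other genes), and in cluster 9 61 and 2 (8.89% and 48.9% of 45 other genes). Members of 1 library share a total, so they are not separate observations. Cells with 10 or more immunoglobulin UMIs made up 14.3% of cluster 3, and without them its mean share was 28.1%.

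By genotype, the share was lower in Foxp3CNS1- cells in both housing states in 5 of 10 clusters (0, 1, 4, 6 and 7), higher in both in clusters 5 and 9, and opposite in 3. Among cells of 2000 to 3000 UMIs these counts were 4, 2 and 4. Over all cells, the difference in cluster 0 was -1.41 points in germ-free and -1.18 points in colonized mice. Of 77 members there, 57 were lower in both and 0 higher in both (21.3% and 35.3% of the other genes). In cluster 6 the difference was -2.30 and -2.26 points. There 66 members were lower in both and 0 higher (15.5% and 43% of the other genes). Cluster 4 had -2.19 and -0.82 points, with 51 members lower in both and 1 higher (14.7% and 36.4% of the other genes). Cluster 7 had -0.81 and -1.16 points and cluster 1 had -0.22 and -0.35 points, while cluster 5 had 0.49 and 1.18 points. Among cells of 2000 to 3000 UMIs the values were -1.25 and -0.99 points in cluster 0 and -2.14 and -2.38 points in cluster 6. Cluster 9 was higher by 1.80 and 2.12 points, and cluster 3 differed in sign between the housing states (1.83 and -0.68 points).

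The authors' second clustering, of 9041 cells from clusters 0, 3, 5, 6, 8 and 9, gave a finer view. Subset s0, with 1688 of its 1942 cells from cluster 3, had 25.7% germ-free and 30.1% colonized in Foxp3GFP cells and 27.7% and 29.8% in Foxp3CNS1- cells. Subset s5, of 632 cells, came mostly from clusters 0 (270 cells) and 5 (256 cells), and also held 83 of the 84 cells of cluster 9. This mixed subset had 25.8% and 31.4%, and 27.6% and 31.1%. Subset s7, with 329 of its 332 cells from cluster 5, was lower after colonization, with 31.7% and 27.2%, and 29.13% and 27.03%. The highest subsets were s2 (38.7%), mostly cluster 6, and s1 (38.1%), mostly cluster 0.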

How the data were processed

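UMI counts per cell and gene of 4 libraries were used as deposited by the authors. Per the labels' protocols they came from Chromium 3′ v3 libraries. The submitters' processing notes name Cell Ranger, Scanpy 1.5.1 and mm10, while the Cell Ranger version, gene annotation, cell filters and doublet treatment were not stated there or in the labels. The table held 17478 cells, and its values were whole numbers. The authors' cell table listed 17251 of them with clusters and marked 303 as removed, which left 16948 cells. The authors' deposited gene count per cell equalled the number of detected genes outside 2213 columns in 17251 of 17251 cells, and these columns included the 78 members and 13 mitochondrially encoded genes. The sources used here do not say whether the clustering left them out. No doublet caller was run.

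UMIs were summed per library and per cluster and library. A share is member UMIs over all UMIs, and CPM is UMIs per 1000000. Groups were taken from the labels. Ratios carry exact 95% binomial intervals, which cover counting error only. A gene was called between libraries past 1.2-fold with an interval leaving out 1, at 50 or more UMIs over both libraries, and between clusters past 1.2-fold of the mean over 4 libraries with the same direction in each, at 50 or more UMIs in every library. The call was tested on counts simulated with counting error alone, so that test does not cover the variation between mice. No p-value was computed, since each group has 1 library. Python 3.11.15, numpy 2.4.6, scipy 1.17.1, pandas 2.3.3 and, for alternative scaling, edgeR 4.0.16 (TMM) and DESeq2 1.42.0 in R 4.3.3 were used. Coordinates are from GENCODE (mm10), and start sequences from RefSeq (GRCm38.p6). Members named are the 8 highest and lowest by level, up to 6 per direction per library comparison, the 10 widest and 5 flattest between clusters, up to 3 per direction per cluster, and those with paralogues or known roles. Rps27rt, the counts of clusters per member and the subsets named were chosen after their values were seen. Some genes that these rules pick are not reported here one by one but are counted in every total. The members and lists were chosen with earlier results of these data known.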

Additional observations from a re-analysis of the deposited data

Results flagged for a closer look

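For 10 members given here the colonized over germ-free log2 ratio lay on opposite sides of 0 in the 2 genotypes, each with a counting interval that left out 0, and the difference between genotypes was not tested. No such count over all genes is given here, so whether 10 members is unusual is not known. Rplp0, Rpl3, Rpl32, Rps6, Rps18, Rpl15 and Rpl26 were lower over all cells after colonization in Foxp3GFP and higher in Foxp3CNS1- mice. The pairs of values were -0.089 and 0.043 for Rplp0, -0.058 and 0.058 for Rpl3, -0.040 and 0.044 for Rpl32, and -0.028 and 0.038 for Rps6. They were -0.033 and 0.026 for Rps18, -0.041 and 0.022 for Rpl15, and -0.021 and 0.024 for Rpl26. Rpl38, Rpl39 and Rpl37 ran the other way, with 0.097 and -0.078, 0.075 and -0.077, and 0.039 and -0.024. Under TMM scaling 8 of the 10 stayed opposite, and Rpl26 and Rpl37 were higher in both genotypes. With a fixed mix of clusters 5 stayed opposite, and Rpl26, Rpl32, Rpl37, Rps6 and Rps18 were higher in both. Cluster by cluster in Foxp3GFP cells, Rps6 was higher after colonization in 7 of 10 clusters, and Rps18 and Rpl26 in 6 of 10, against their direction over all cells. Rpl37 was likewise higher in 8 of 10 clusters of Foxp3CNS1- cells. With 1 library a group the variation between mice is not in these intervals.

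Cells outside the analysed set also held ribosomal protein UMIs. The share was 31.05% in the 303 cells marked as removed by the authors and 21.92% in the 227 barcodes that the cell table does not list, against 36.88% in the analysed cells.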

How the results depend on the processing

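No paired analysis was possible because each group has 1 library. The order of comparisons below is colonization in Foxp3GFP, colonization in Foxp3CNS1-, genotype in germ-free and genotype in colonized mice, where the log2 ratio of the share was -0.038, -0.037, -0.074 and -0.073. With a fixed mix of clusters it was 0.015, 0.013, -0.020 and -0.023, so both colonization values changed sign. With each cell weighted equally it was -0.0079, -0.0043, -0.082 and -0.078, and with cells reduced to 1500 UMIs -0.019, -0.018, -0.077 and -0.076. Without clusters 8 and 9 the first 3 were -0.025, -0.014 and -0.082. With the deepest cells removed (above the 98th percentile) they were -0.025, -0.022 and -0.076. Without mitochondrially encoded genes the colonization values were -0.044 and -0.042. Without cells holding 10 or more immunoglobulin UMIs they were -0.025 and -0.026, and genotype in colonized mice was -0.075. Leaving out cells with Hspa1a or Hspa1b, colonization in Foxp3CNS1- mice gave -0.044 and genotype in colonized mice -0.080. The cause was not tested. Members called numbered 1, 1, 0 and 1. At 1.1-fold they were 4, 12, 5 and 7. For colonization, 2 were higher and 2 lower in Foxp3GFP mice (16.3% and 14.8% of all genes). In Foxp3CNS1- mice 2 were higher and 10 lower (12.7% and 16.1%). For genotype, 0 were higher and 5 lower in germ-free mice (13.7% and 4.74%), and 0 and 7 in colonized mice (10.2% and 6.33%). The lower genotype calls were thus a larger share of members than of all genes at this fold. At 1.5-fold, and with a fixed mix, 0 members passed in any comparison. With cells reduced to 1500 UMIs, 0 passed for colonization in either genotype, and the cause was not tested. With a minimum of 1 UMI in place of 50, 2 passed upward for colonization in Foxp3GFP mice (9.5% of all genes). For genotype in colonized mice 2 passed downward (3.67% of all genes). The fold of 1.88 between the highest and lowest cluster stayed at 1.81 to 1.97 with each library left out in turn (leave-one-out). Of the values within clusters whose counting interval left out 0, 5 changed sign with depth: among cells of 2000 to 3000 UMIs, colonization was 0.039 in cluster 5 and 0.096 in cluster 8 of Foxp3GFP cells and -0.032 in cluster 1 of Foxp3CNS1- cells, and genotype in germ-free mice was 0.012 in cluster 1. In cells reduced to 1500 UMIs, cluster 5 of Foxp3CNS1- cells had 0.0030 for colonization. Of 50 named members with a value in each comparison, the sign changed for 17, 11, 14 and 10 with a fixed mix. TMM moves every gene of a comparison by 1 constant (log2 0.025, 0.044, -0.052 and -0.033), so 11, 10, 4 and 3 of them, within that constant of 0, changed sign under it. Reduction to 1500 UMIs left out 452, 181, 391 and 261 shallower cells of the libraries in the report's order.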
